A study of Mus musculus with 7 samples.

Results

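The placode genes described here, of the sine oculis homeobox, Eya and Dach families, were Six2, Six4, Eya1, Eya2, Eya4 and Dach1, a set of 6 chosen by name. Open chromatin around them was read from peaks inside each gene body or within 100 kb of it. Merged over all 7 libraries, the 6 windows held 154 of 128642 autosomal regions of open chromatin, or 88 of 77136 when every list was limited to its 38000 autosomal peaks with the largest deposited −log10 p.

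Sine oculis homeobox proteins (the Six2 and Six4 products among them) are homeodomain transcription factors, EYA proteins are phosphatases that act as their coactivators without binding DNA themselves, and DACH1 is a corepressor that can join the same complexes. In vertebrate embryos the network is best known from the placodes, thickenings of the head ectoderm that give rise to the ear, the lens, the nose and cranial sensory ganglia. Several members are also used in mesenchyme, muscle and kidney.

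The study measured open chromatin by Omni-ATAC-seq, in which a transposase cuts DNA that is not covered by nucleosomes. All libraries came from mice, and the 5 groups were E11.5 ectoderm, peeled off the mesenchyme of first pharyngeal arches after Dispase II treatment (2 replicates), Sox2-positive cells sorted from the labial cervical loop of the lower incisor at postnatal day 2 (2 replicates), and whole lower incisor, lower first molar and upper first molar at postnatal day 2 (1 library each). The sorted cells, named dental epithelial stem cells by the labels, came from a Sox2-GFP mouse line, whose GFP is driven by the endogenous Sox2 promoter according to the series' design text. The labels give no strain and no other allele or treatment for any group. Whether replicates came from separate litters, and how many animals were pooled, is not given in the sources used here, so the spread between replicates may be technical. The deposited data are 1 peak list per library with no read counts, so read depth is unknown. The lists held 80850 and 49719 autosomal peaks in ectoderm, 41829 and 38326 in the sorted cells, 62074 in incisor, 68877 in lower molar and 67193 in upper molar. Longer lists hold more weak peaks, so counts were also made with 38000 peaks per list, and ranks and widths are those of the full lists.

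Marker genes were read by whether a peak lay within 1 kb of the gene start, or of either gene end where no start was given. Of 9 epithelial markers, 8 had such a peak in each ectoderm and each Sox2-positive library, Trp63 being the exception in all of them. Of 7 mesenchymal markers, 5 and 6 had one in ectoderm (4 and 6 with 38000 peaks per list) and 7 in each Sox2-positive library in both settings. Pdgfra, which encodes a growth factor receptor of mesenchyme, had none in ectoderm and one in the 5 P2 libraries. Gene starts of the odontoblast markers Dspp and Dmp1 had no peak in ectoderm or in Sox2-positive replicate 1, whereas replicate 2 had one at Dmp1. Enamel gene starts (Ambn and Enam) had a peak at 0 in ectoderm and 1 in each Sox2-positive library. Of 3 blood markers 2 had a start peak in every library, of 3 endothelial markers 1 to 2, of 3 muscle markers 1 to 3, and of 2 neural markers 1. With 38000 peaks per list these were 1 to 2, 0 to 1, 0 to 1, and 1. Within 100 kb of Dmp1 the Sox2-positive lists held 5 and 10 peaks and the incisor list 24, or 3, 10 and 11 with 38000 peaks per list. In any list a missing peak can mean fewer cells with the site open or a weaker opening in each cell, and these cannot be told apart.

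Over the 6 windows together the ectoderm lists had 112 and 62 peaks (87 ± 35.4, SD, n = 2) and the Sox2-positive lists 35 and 45 (40 ± 7.07, SD, n = 2). The incisor had 66 peaks, the lower molar 66 and the upper molar 69. Both ectoderm libraries were above both Sox2-positive libraries, which gave p = 0.333 in the two-sided exact permutation test, the smallest value that 2 against 2 libraries allow. With 38000 peaks per list the counts drew together, to 49 and 45 in ectoderm (47 ± 2.83), 34 and 45 in the sorted cells (39.5 ± 7.78, SD, n = 2 each), 39 in incisor, 26 in lower molar and 35 in upper molar. The groups then met at 45, and the difference of 7.5 peaks was within the spread of the Sox2-positive replicates (exact permutation p = 0.667). Equal lists chosen by the deposited signal gave a difference of 11 peaks, with both ectoderm libraries again above both others (exact permutation p = 0.333). The difference was thus smaller in lists of equal length, and whether the groups overlapped depended on how peaks were ranked.

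Taken gene by gene, both ectoderm libraries had more window peaks than either sorted library at 4 of the 6 genes, Six2, Eya1, Eya4 and Dach1, against 48.5% of all 20665 autosomal protein-coding genes. At equal list length this was seen at 3 of 6, Six2, Eya4 and Dach1, against 22.5% of all genes. The reverse order was seen at none with all peaks (1.92% of all genes), and at Eya2 with equal lists (20.7% of all genes). A set of 6 is too small to set apart from these shares.

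**Figure D1:**
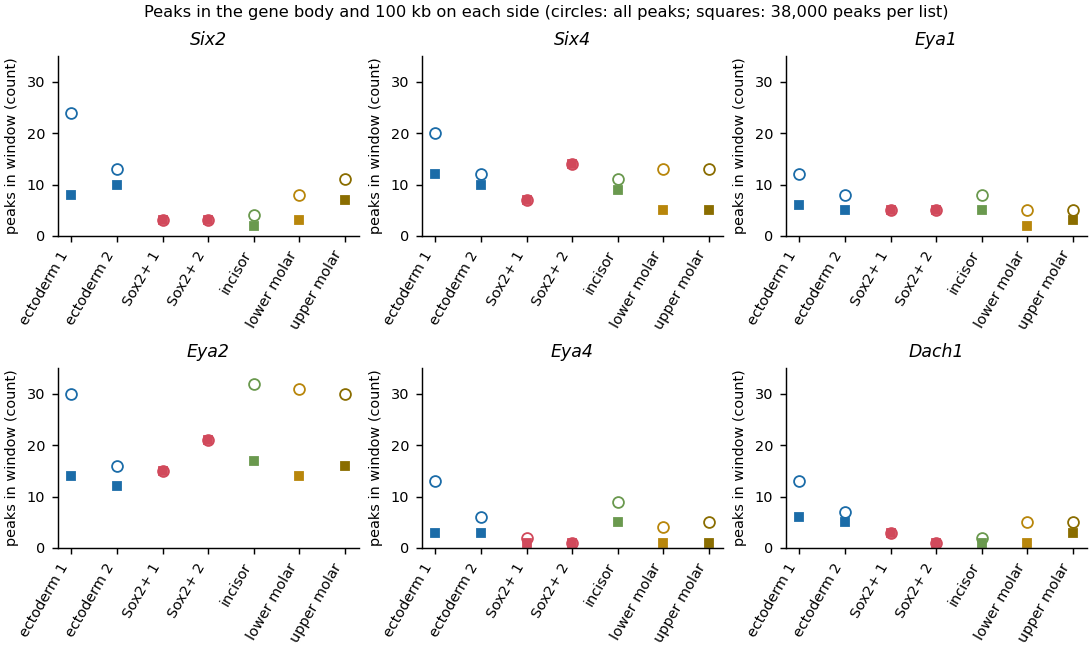
Number of peaks (y axis) in the gene body and 100 kb on each side of each gene, for the 7 libraries (x axis). Open circles count all peaks and filled squares the 38000 best per list. Six2, Eya4 and Dach1 keep both ectoderm squares above both Sox2-positive squares, and at Eya2 the Sox2-positive squares, 15 and 21, lie above those of ectoderm, 14 and 12.

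Window lengths differ, so the genes were also compared by density. Per 100 kb of window, Eya2 had 3.72 and 3.19 peaks in ectoderm, 3.98 and 5.57 in the sorted cells and 3.72 to 4.51 in whole teeth at equal list length. Six4 had 5.60 and 4.66 in ectoderm, 3.26 and 6.53 in the sorted cells and 2.33 to 4.20 in whole teeth. Both genes lay at or above the median of all autosomal genes, 2.45 to 2.64 peaks per 100 kb, in all 7 libraries, with the exception of Six4 in the molars (2.33 in each). Eya1, with 0.585 to 1.75, Dach1, with 0.172 to 1.03, and Eya4, with 0.223 to 1.12, were below that median in all 7 libraries. Six2 also lay on both sides of it. Its density was 3.55 and 4.43 in ectoderm, 1.33 in each Sox2-positive library, 0.887 in incisor, 1.33 in lower molar and 3.10 in upper molar. Six2 was therefore above the median in ectoderm and upper molar and below it in the sorted cells, the incisor and the lower molar. Counted per window instead of per 100 kb, the median over all genes at equal list length was 6 peaks in each library. By that measure Eya1 and Dach1 met the median in ectoderm replicate 1, with 6 peaks each. Eya1, Dach1 and Eya4 were below it in every other case.

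Six2 encodes a homeodomain factor known from nephron progenitors and from craniofacial mesenchyme. It lies on chromosome 17 from 85662736 to 85688254 on the minus strand, and its window also holds Six3, a homeobox gene of the forebrain and eye. The window had 24 and 13 peaks in ectoderm, 3 and 3 in the sorted cells, 4 in incisor, 8 in lower molar and 11 in upper molar. With 38000 peaks per list, it had 8 and 10, 3 and 3, 2, 3 and 7. The 2 ectoderm libraries were above both Sox2-positive libraries in each setting, with no overlap. The upper molar had more peaks than the lower molar, without a replicate to check it.

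The start of Six2 was under a peak in 6 libraries and lacked one in Sox2-positive replicate 1, with all peaks and at equal list length. Ranked by the deposited −log10 p, the start peak was within the top 2.82% and 4.53% of the ectoderm lists, 9.47% of Sox2-positive replicate 2, 8.76% of lower molar and 7.33% of upper molar. It stood lower in incisor, at 23.9%. It was 2276 and 2215 bp wide in ectoderm, 1742 and 1658 bp in the molars, 1357 bp in Sox2-positive replicate 2 and 985 bp in incisor. The 250 bases before the annotated start, chr17:85688255-85688504 on the minus strand (RefSeq, GRCm38.p6), are shown because they lie under these peaks. Capitals mark 1 CCAAT box and 2 GC boxes (GGGCGG on either strand).
Six2 promoter: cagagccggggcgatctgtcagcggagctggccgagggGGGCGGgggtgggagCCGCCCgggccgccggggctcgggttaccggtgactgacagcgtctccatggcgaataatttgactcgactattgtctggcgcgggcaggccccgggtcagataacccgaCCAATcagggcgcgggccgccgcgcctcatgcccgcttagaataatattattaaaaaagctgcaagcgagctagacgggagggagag
Such letters are common, with CCAAT in 33.8% and GGGCGG in 32.7% of 32851 RefSeq promoters of the same length. The sequence has 64.8% G and C.

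An ectoderm-only region is defined here as a merged region with a peak in both ectoderm and neither Sox2-positive library. Six2 had 9 of them among the 13 regions found in both ectoderm libraries, 4 of 8 at equal list length. Their background is 48.6% of regions over all autosomes, and 37.4% at equal length. Of the 9 regions, 6 were nearer to an end of Six2 and 3 to an end of Six3. The highest-ranked one, judged here and below by the worse of its ranks, was chr17:85617601-85618865, inside Six3, in the top 28.2% and 33.6% of the ectoderm lists. Its deposited signal was 1913 and 1362. It had no peak in incisor or lower molar and a weak one, at 97.7% of the list, in upper molar. Directly around the Six2 start, ectoderm-only regions lay at chr17:85685073-85685543 inside the gene and at chr17:85690469-85691295 and chr17:85691795-85692811 upstream of it. The region at 85690469 was also open in both molars, and the other 2 of these had no peak in a whole tooth. Those 2 ranked low in the ectoderm lists, at 73.7% and 91.9% for 85685073 and 82.1% and 81.5% for 85691795. At equal list length they had no peak in any library, and the region at 85690469 lost its lower molar peak. No region of the Six2 window was open in both Sox2-positive libraries and without a peak in ectoderm.

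The only region of this window with a peak in all 7 libraries lay between Six3 and Six2, 16.5 kb from the end of Six2, at chr17:85645698-85646679. It ranked in the top 17.5% and 24.8% in ectoderm, 26.2% in lower molar and 17.4% in upper molar. In Sox2-positive cells it ranked at 50.9% and 52.8%, and in incisor at 79.3%. The incisor peak was lost at equal list length.

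Six4 encodes a homeodomain factor of muscle and sensory organs. The gene lies on chromosome 12 from 73099609 to 73114031 on the minus strand. Mnat1, a gene of a general transcription and cell cycle kinase complex, overlaps the upper end of Six4. The window held 20 and 12 peaks in ectoderm, 7 and 14 in the sorted cells, 11 in incisor and 13 in each molar. Among 38000 peaks per list the counts fell to 12 and 10, 7 and 14, 9, 5 and 5. The groups overlapped in both settings, and the Sox2-positive replicates stood further apart than the ectoderm replicates did at equal length. Of the 25 regions of the ectoderm and sorted lists in this window, 7 were nearest to an end of Six4, and 5 of 21 at equal list length. The rest were nearest to ends of other genes.

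A peak lay at a Six4 start in all 7 libraries, as at 55.7% of all gene starts (51.4% at equal list length). The peak was in the top 1.53% and 8.46% of the ectoderm lists, where it spanned 2502 and 2656 bp. In Sox2-positive cells it ranked at 80.0% and 27.8% with widths of 658 and 453 bp, in incisor at 19.0% with 412 bp, in lower molar at 22.2% with 2248 bp and in upper molar at 33.3% with 1156 bp. These widths are of the best peak, and Sox2-positive replicate 2 and upper molar had 2 separate peaks near the starts and incisor 3. The start was covered by 1 broad peak in ectoderm and lower molar and by narrower ones in the sorted cells and incisor. This stretch also holds an end of Mnat1, so the peak cannot be assigned to Six4 alone. The letters TCAGGTTTC (MEF3), a sequence bound by proteins of the Six4 family in muscle genes, occur 99 bases before one of the 2 annotated Six4 starts, on the strand opposite to the gene. They are shown because the site belongs to this gene family and lies under a peak in all 7 libraries. The site is chr12:73113326-73113354, minus strand, with the match in capitals.
Six4 MEF3 match: tggcctggggGAAACCTGAtcggccagat
The same letters occur in 0.387% of 32851 promoters, and in 1 of the 6 promoter entries of the members.

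Around Six4, 5 regions were ectoderm-only (4 at equal list length) and 2 were shared by the sorted replicates and absent from ectoderm (2 at equal length). The background for this second class, called Sox2-positive-only here, is 27.1% of regions found in both Sox2-positive libraries, and 34.5% at equal length. The highest-ranked ectoderm-only region, chr12:73205647-73206610 inside Mnat1 and 92.1 kb from Six4, stood at 38.7% and 37.8% of the ectoderm lists and had no peak elsewhere. The 2 Sox2-positive-only regions lay 51.7 and 84.9 kb from the nearer end of Six4, and each was nearer to an end of another gene. Neither had a peak in any whole tooth. Over all autosomes 3.91% of Sox2-positive-only regions lacked one, and 12.1% at equal list length. They were 2 of the 4 Sox2-positive-only regions of the 6 windows (50%, Wilson 95% interval 15.0 to 85.0), and at equal length 3 of 5 had no whole-tooth peak (60%, 23.1 to 88.2). Both intervals lie above the share over all autosomes, on counts of 4 and 5 regions. Regions are not replicates, and the 2 at Six4 enter both counts. The region added at equal length, chr1:14184837-14185265 at Eya1, had an incisor peak in the full list that the shorter list lost. No conclusion is drawn from these intervals.

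The Six4 window had 3 regions with a peak in all 7 libraries, among them the one at the start. Of the 8 regions that Sox2-positive replicate 2 had and replicate 1 lacked, 4 had a peak in incisor, with all peaks and at equal list length. Over all autosomes 82.2% of such regions had one, and 54.4% at equal length.

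Eya1 encodes the EYA protein whose loss causes ear, kidney and branchial arch defects. The gene spans 142 kb on chromosome 1, from 14168953 to 14311035, and no other protein-coding gene lies in its window. It had 12 and 8 peaks in ectoderm, 5 and 5 in the sorted cells, 8 in incisor and 5 in each molar. In lists of equal length the counts were 6 and 5, 5 and 5, 5, 2 and 3, and ectoderm and Sox2-positive cells met at 5. The strand of Eya1 is not in the table used, so peaks were sought at either end. The upper end had a peak within 1 kb in all 7 libraries and the lower end in none. This peak, chr1:14309420-14310411 at its widest, ranked in the top 7.87% and 13.8% of the ectoderm lists and 37.8% and 37.7% of the Sox2-positive lists. It ranked at 19.3% in incisor, 20.8% in lower molar and 15.5% in upper molar. Its position was the same throughout, while its rank was highest in ectoderm and lowest in the sorted cells.

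Of 8 regions at Eya1 found in both ectoderm libraries, 6 were ectoderm-only, and 2 of 3 at equal list length. A group of 3 lay close together inside the gene, at chr1:14217124-14217480, chr1:14219855-14220761 and chr1:14225362-14225814. The middle one ranked highest, at 15.2% and 37.4% of the ectoderm lists with signals of 2005 and 1069, and no P2 library had a peak at any of the 3. With 38000 peaks per list only the middle one kept both ectoderm peaks, and each of the others kept that of 1 replicate. Sox2-positive cells had 2 regions that ectoderm lacked. One, chr1:14126434-14127054, 42.2 kb below the gene, had a peak in all 5 P2 libraries, at 42.3% and 83.6% in the sorted cells, 37.0% in incisor, 72.1% in lower molar and 43.3% in upper molar. The other, chr1:14184837-14185265 inside the gene, was open in the sorted cells (50.3% and 92.2%) and incisor (72.4%) and not in the molars. Besides the peak at the gene end, 1 further region, chr1:14304429-14305516, had a peak in all 7 libraries.

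**Figure D2:**
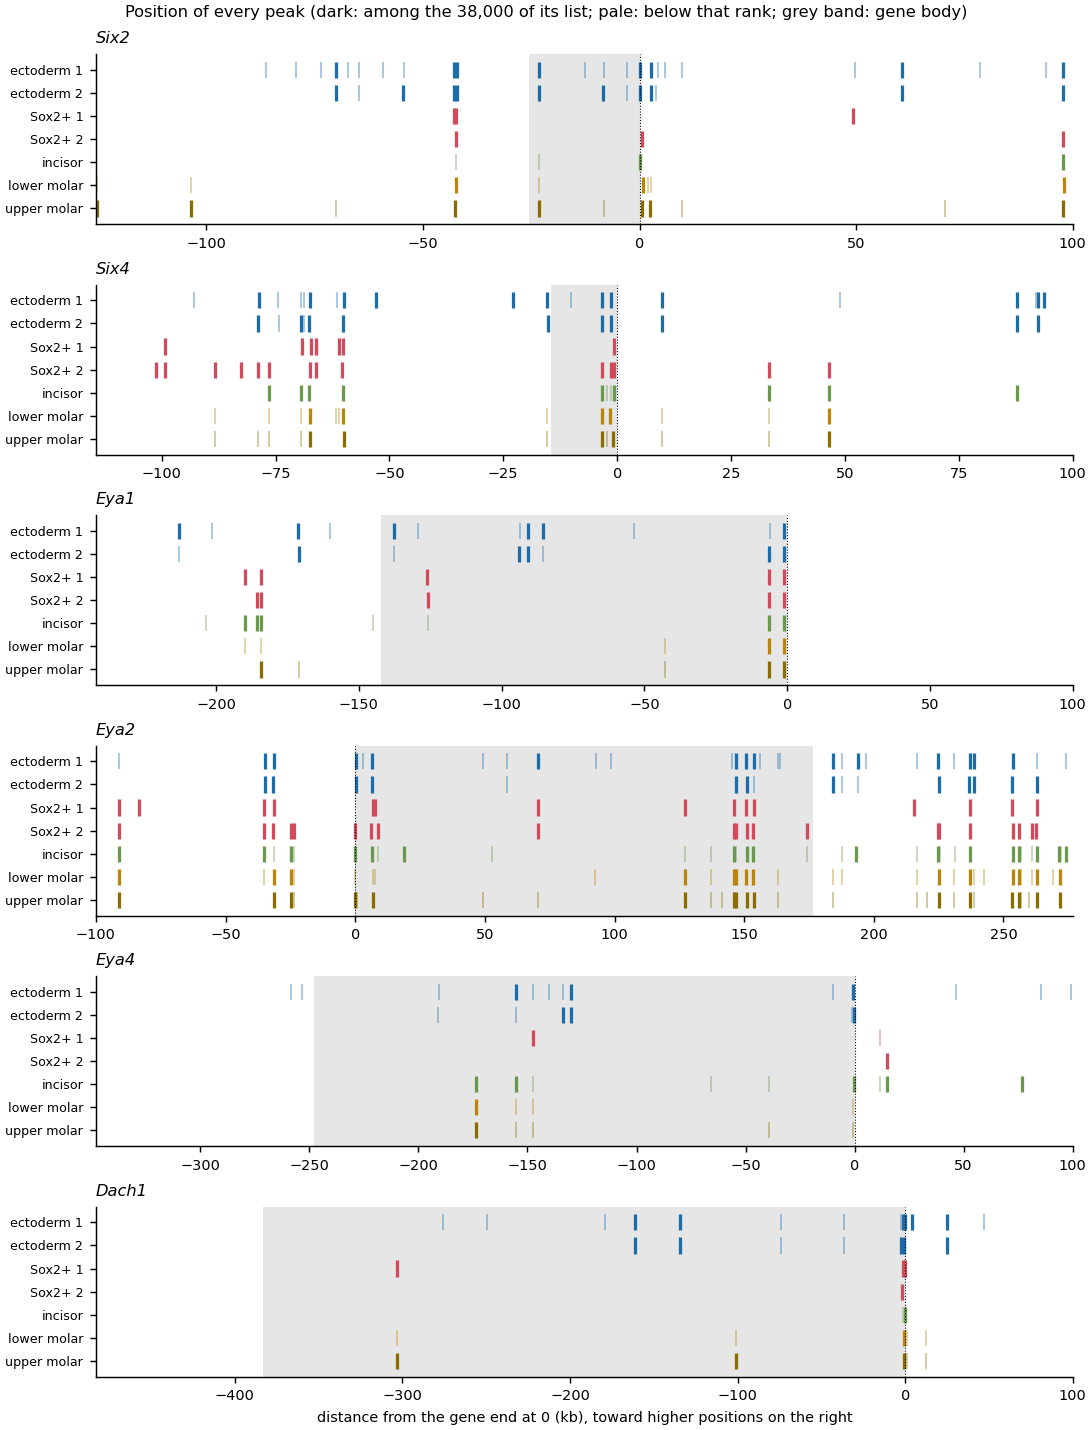
Position of each peak along the 6 windows, in kb from a gene end set to 0 (x axis), with 1 row per library. Dark marks are among the 38000 best of their list, pale marks are below, and the grey band is the gene body. The ectoderm rows of Eya1 show the group of marks inside the gene that no P2 row has, of which only the middle one is dark in both ectoderm rows, and the P2 rows show marks below the gene that ectoderm lacks.

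Eya2 encodes an EYA coactivator of placodes and muscle. It lies on chromosome 2 from 165595028 to 165771727, with Slc2a10, a sugar transporter gene, and Zmynd8, which encodes a chromatin reader, in the window. It had the most window peaks of the 6 genes in every library, 30 and 16 in ectoderm, 15 and 21 in the sorted cells, 32 in incisor, 31 in lower molar and 30 in upper molar. The best 38000 peaks of each list gave 14 and 12, 15 and 21, 17, 14 and 16. Sox2-positive cells were then above ectoderm in both replicates, by 1 peak at the closest pair. Of the 40 regions of the ectoderm and sorted lists, 23 were nearest to Eya2, 15 to Zmynd8 and 2 to Slc2a10.

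Eya2 was the member with the most sites common to all groups. Of 16 regions in both ectoderm libraries, 9 were in both Sox2-positive libraries as well, and 8 of 49 merged regions were open in every library, against 14.2% of merged regions over all autosomes, so the share at Eya2 was near the background. With equal lists 4 of 28 had one in all 7, against 19.2%. The highest-ranked region open in every library, chr2:165831038-165832892, lay inside Zmynd8 60.2 kb beyond Eya2. It was in the top 1.21% and 2.28% of the ectoderm lists, 5.20% and 6.94% of the Sox2-positive lists, 2.90% of incisor, 1.47% of lower molar and 1.66% of upper molar. Inside Eya2, 3 such regions followed each other at chr2:165741009-165742666, chr2:165745419-165746623 and chr2:165748032-165749184. The first of them ranked at 28.0% and 31.1% in the sorted cells and at 30.4% and 34.8% in ectoderm, with the teeth between these. Another region inside the gene, chr2:165601008-165602245, was 6.60 kb from its end and ranked in the top 11.6% and 24.7% in ectoderm and at 77.6% and 88.1% in the sorted cells.

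The end of Eya2 at 165595028 had a peak in 6 libraries and none in Sox2-positive replicate 1. It ranked at 41.5% and 41.9% in ectoderm, 90.2% in Sox2-positive replicate 2, 61.1% in incisor, 58.7% in lower molar and 47.7% in upper molar, and was 1200 and 1175 bp wide in ectoderm against 394 to 433 bp elsewhere. These widths are of the best peak, and upper molar had a second peak of 657 bp beside it, from 165595419 to 165596075. That second peak and the lower molar peak were lost at equal list length. Of the 16 regions in both ectoderm libraries, 5 were ectoderm-only, and 2 of 11 at equal length, below the backgrounds of 48.6% and 37.4%. Of these 5 regions, 1 was nearest to Eya2 and 4 to Zmynd8. The highest-ranked was chr2:165833073-165834268 inside Zmynd8, at 17.5% and 27.2% in ectoderm. Its incisor overlap came from a peak that also covers the adjoining region open in all libraries. Lower and upper molar had separate peaks of their own inside it, at 66.6% and 68.3% of their lists, which were lost at equal list length. No Sox2-positive-only region was found at Eya2 with all peaks, and 1 at equal list length. Of 11 regions found in 1 Sox2-positive replicate only, 8 were in replicate 2, and all 8 had a peak in incisor, against 82.2% of such regions over all autosomes. At equal list length 4 of 8 had one, against 54.4%.

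Eya4 encodes an EYA coactivator of ear and muscle. It spans 248 kb on chromosome 10, from 23102962 to 23350838 on the minus strand, with no other protein-coding gene in its window. It had 13 and 6 peaks in ectoderm, 2 and 1 in the sorted cells, 9 in incisor, 4 in lower molar and 5 in upper molar. Equal lists gave 3 and 3, 1 and 1, 5, 1 and 1. Ectoderm was above Sox2-positive cells without overlap in both settings, at low counts, and incisor was above both molars.

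Its start was the one among the 6 with a peak in both ectoderm and neither Sox2-positive library. That pattern was found at 6.04% of all gene starts (3.61% at equal list length). The start peak ranked at 45.2% and 50.5% of the ectoderm lists, 60.8% of incisor, 73.6% of lower molar and 79.3% of upper molar, and the molar peaks were lost at equal length. It was 2087 bp wide in ectoderm replicate 1, 844 bp for the better of 2 peaks in replicate 2, 1084 bp in incisor, 230 bp in lower molar and 484 bp in upper molar. No region of the Eya4 window was shared by the 2 Sox2-positive libraries. The promoter of one Eya4 start, with 74.0% G and C, has 1 match to the AP-2 letters GCCNNNGGC, which 13.7% of promoters hold. AP-2 factors are regulators of facial ectoderm. The site, chr10:23350165-23350193 on the minus strand, is shown because it is under the start peak in both ectoderm and all whole-tooth libraries, and capitals mark the match.
Eya4 AP-2 match: tGCCCGCGGCgcggcgcacgctccggcgg

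All 5 regions that both ectoderm libraries had at Eya4 were ectoderm-only, 2 of 2 at equal list length, and all lay inside the gene. The start region and chr10:23195390-23195762 were also open in the 3 whole teeth. The others, at chr10:23159673-23160395, chr10:23216771-23217173 and chr10:23220426-23221003, had no peak in any P2 library. Of these the one at 23216771 ranked highest by the worse of its ranks, at 47.7% and 44.7% of the ectoderm lists. These are middle ranks, and the signals there were 663 and 558. With 38000 peaks per list it kept the peak of ectoderm replicate 2 alone, and the 2 regions that stayed ectoderm-only were the start region and the one at 23220426.

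Dach1 encodes a corepressor known from eye, limb and craniofacial development. It is the longest of the 6, with 383 kb on chromosome 14 from 97786846 to 98169765 on the minus strand, and its window holds no other protein-coding gene. It had 13 and 7 peaks in ectoderm, 3 and 1 in the sorted cells, 2 in incisor and 5 in each molar. Limiting the lists to 38000 peaks left 6 and 5, 3 and 1, 1, 1 and 3. Ectoderm again lay above Sox2-positive cells in both replicates and both settings.

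The Dach1 start had a peak within 1 kb in 6 libraries, and Sox2-positive replicate 2 was the one without. Replicate 2 had a peak nearby, from 98167812 to 98168470, at 96.8% of its list, so that the merged region chr14:98167261-98170279 over the start counted as open in every library. The start peak ranked at 21.5% and 29.3% in ectoderm, 23.2% in Sox2-positive replicate 1, 38.7% in incisor, 13.6% in lower molar and 12.8% in upper molar. The best start peak was 747 and 2487 bp wide in ectoderm and 2475 and 2579 bp in the molars. It was 1015 bp wide in Sox2-positive replicate 1 and 792 bp in incisor. In ectoderm replicate 1, Sox2-positive replicate 1 and incisor, a further peak of 1577, 1478 and 925 bp lay in the same merged region. Dach1 was the member whose start ranked higher in the molars than in ectoderm. The 250 bases before the start, chr14:98169766-98170015 on the minus strand (RefSeq, GRCm38.p6), hold neither GGGCGG nor CCAAT and are shown for contrast with Six2.
Dach1 promoter: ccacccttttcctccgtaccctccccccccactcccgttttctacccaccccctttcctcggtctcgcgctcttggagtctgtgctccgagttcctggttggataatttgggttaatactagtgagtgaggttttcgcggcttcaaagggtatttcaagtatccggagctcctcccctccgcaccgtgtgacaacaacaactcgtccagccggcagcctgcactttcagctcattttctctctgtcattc
It has 54.8% G and C.

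Of 6 regions at Dach1 found in both ectoderm libraries, 5 were ectoderm-only and none of these had a peak in a whole tooth. With equal lists 3 of 4 were ectoderm-only. The highest-ranked, chr14:98194653-98195227, lay 25.2 kb upstream of the gene, at 18.5% and 28.2% of the ectoderm lists. The other 4 were inside the gene, at distances of 36.6 to 161 kb from its nearer end. The molars shared 3 regions that no other library had, and none of these was left at equal list length.

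**Figure D3:**
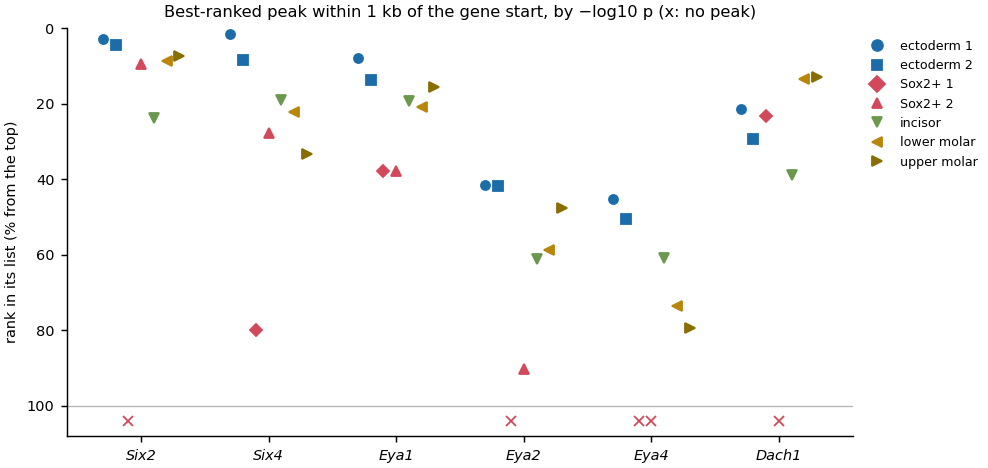
Rank of the best peak within 1 kb of the start of each gene (either end for Eya1 and Eya2), as a percentage of its list from the top by −log10 p (y axis, reversed), for the 7 libraries. Crosses mark libraries with no such peak. All 5 crosses belong to Sox2-positive libraries.

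Set side by side, with all peaks the starts lacked peaks in the sorted lists alone, and these were the shortest lists. A start peak was missing in 5 of the 42 combinations of gene and library, all 5 of them in sorted cells. These were replicate 1 at Six2 and Eya2, replicate 2 at Dach1, and both at Eya4. The exact pattern of libraries seen at Six2 and Eya2 was found at 0.929% of all gene starts. That of Dach1 was found at 1.52% and that of Eya4 at 1.03%. Each of these is the share of 1 exact pattern taken from the members themselves, and is no background for the 5 absences. The share of missing start peaks over all genes and libraries was not computed, so 5 of 42 cannot be called high or low. At equal list length 8 were missing, the other 3 being the lower molar at Eya2 and both molars at Eya4. Equal lists are the top parts of the full lists, so the 5 absences in the sorted cells could not disappear at equal length. In lists of the same length, starts with a peak in both ectoderm and neither Sox2-positive library made up 3.61% of genes, and the opposite pattern, found at none of the 6, 0.992% (0.397% with all peaks).

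Over the 6 windows, 35 of 59 regions common to the ectoderm replicates were ectoderm-only (59.3%, Wilson 95% interval 46.6 to 70.9, background 48.6%). At equal list length they were 17 of 37 (45.9%, 31.0 to 61.6, background 37.4%). All 17 overlapped ectoderm-only regions of the full lists. The share was above the background in both settings, and the background lay inside both intervals. In 4 alternatives the background lay below the interval. These were the best 50% of each list, with 18 of 27 (66.7%, 47.8 to 81.4, background 42.4%), a required cover of 50% of a region, with 39 of 53 (73.6%, 60.4 to 83.6, background 56.7%), and the counts without ectoderm replicate 2 (75%, 66.1 to 82.2, background 64.5%) and without Sox2-positive replicate 2 (69.5%, 56.9 to 79.7, background 51.3%). Whether the share stood apart from that of other genes thus depended on the setting. Of the 22 regions in both Sox2-positive libraries, 4 were Sox2-positive-only (18.2%, 7.31 to 38.5, background 27.1%), and 5 of 22 at equal length (22.7%, 10.1 to 43.4, background 34.5%). These intervals cover the counting of regions only.

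**Figure D4:**
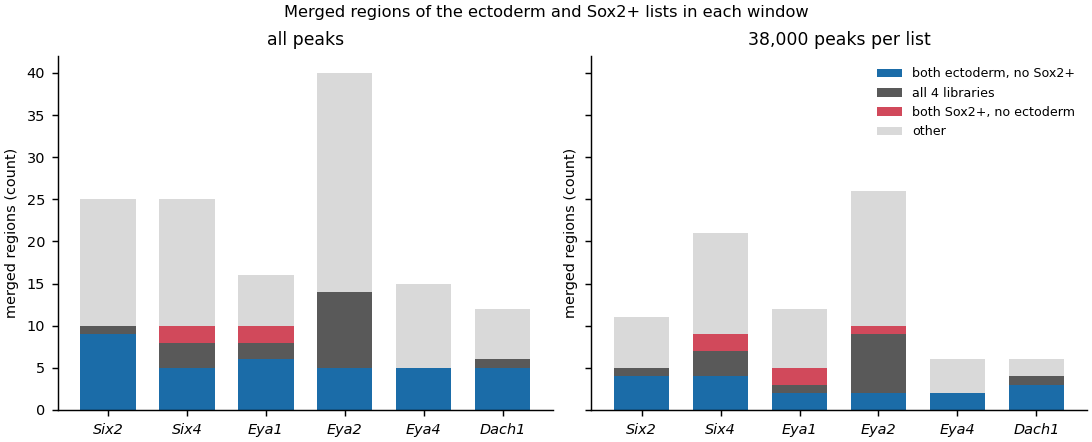
Merged regions of the ectoderm and Sox2-positive lists in each window (y axis, count), with all peaks on the left and 38000 peaks per list on the right. Colours give the class of a region, and other stands for every other combination of libraries. Ectoderm-only regions occur at all 6 genes in both panels, and regions open in all 4 libraries are most numerous at Eya2, with 9 and 7.

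The 35 ectoderm-only regions had a median width of 613 bp, close to the 579 bp of all ectoderm-only regions, and the 16 regions open in all 4 libraries had 1228 bp (1275 bp over all autosomes). Of the 35, 17 lay inside the member's gene body and 2 within 1 kb of any gene end. A peak in at least 1 whole tooth was found at 13 (37.1%, Wilson 95% interval 23.2 to 53.7, background 34.8%). At equal list length it was 5 of 17 (29.4%, 13.3 to 53.1, background 18.4%). The remaining 22 regions, 12 at equal length, had no peak in a P2 library. Both backgrounds lay inside these intervals.

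Of 20 regions in Sox2-positive replicate 2 and not in replicate 1, 16 had an incisor peak (80.0%), against 82.2% over all autosomes. Of 9 in replicate 1 and not in replicate 2, 5 had one (55.6%, background 56.7%). In lists of equal length the values were 12 of 20 (60%, background 54.4%) and 2 of 8 (25.0%, background 28.0%). The excess of replicate 2 came from the windows of Six4 (8 against 1 with all peaks) and Eya2 (8 against 3). It was 2 against 1 at Six2, 1 against 1 at Eya1, 1 against 2 at Eya4 and 0 against 1 at Dach1. Over all autosomes replicate 2 had 8120 such regions and replicate 1 had 11053, and at equal length 9163 and 8947. The lists as a whole thus had no excess like that at Six4 and Eya2. Replicate 2 also had more peaks around the odontoblast gene Dmp1, as given above, and the part of this in the result was not tested.

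Incisor and molars were compared with 1 library per tooth, so without a replicate check. Of the 61 regions found in incisor, 15 were in neither molar (24.6%, Wilson 95% interval 15.5 to 36.7, background 19.8%), and 14 of 39 at equal list length (35.9%, 22.7 to 51.6, background 25.3%). Of the 55 regions found in both molars, 14 were not in incisor (25.5%, 15.8 to 38.3, background 26.9%), and 4 of 26 at equal length (15.4%, 6.15 to 33.5, background 25.3%). With all peaks, genes leaned in different directions. At Eya1 4 regions were in incisor and neither molar and 1 in both molars and not incisor, and at Eya4 these counts were 4 and 0. At Six2 the counts were 0 and 3, and at Dach1 0 and 4. Six4 had 1 and 3, and Eya2 6 and 3. With equal lists Eya4 still had 4 and 0 and Eya1 had 2 and 0, while Six2 had 0 and 1 and Dach1 0 and 0. Six4 then turned to 4 and 0, and Eya2 had 4 and 3, so the only lean to the molars left was the 1 region at Six2. In counts of window peaks, incisor was above both molars at Eya1, Eya2 and Eya4, against 19.2% of all genes. At equal length Six4 joined these, against 26.7%. Molars were above incisor at Six2, Six4 and Dach1 with all peaks (38.8% of all genes) and at Six2 alone with equal lists (25.9%).

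**Figure D5:**
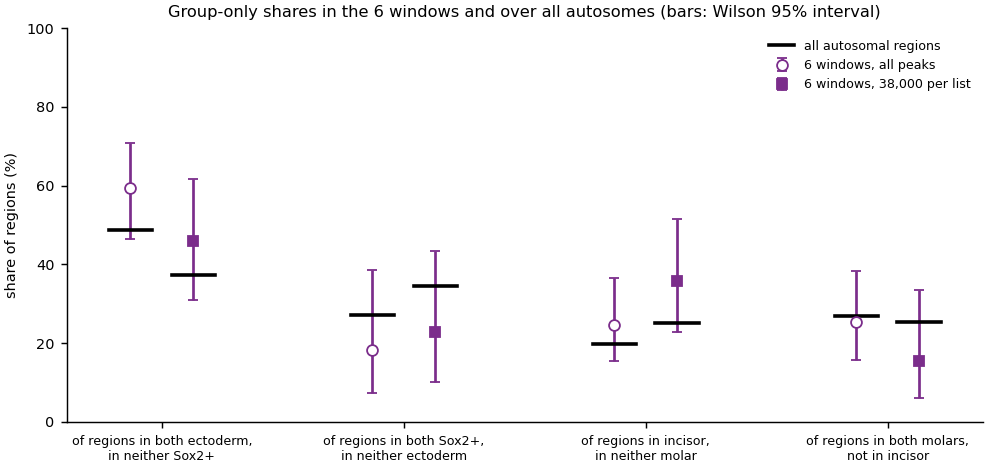
Share of regions (y axis, percent) that one group had and the other lacked, in the 6 windows (points with Wilson 95% intervals) and over all autosomes (black lines). Open circles are for all peaks and filled squares for 38000 peaks per list. The black line lies inside the interval in all 8 cases.

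Other genes of the network were read the same way, from a list of 15 that included Six3, Six5, Six6, Eya3 and Dach2, Sobp, and placode, kidney and muscle genes. Dach2 is on chromosome X and was left out, which leaves 14. Both ectoderm libraries had more window peaks than either sorted library at 10 of the 14 (background 48.5%) and at 5 with equal lists (background 22.5%). The reverse was seen at 0 and, with equal lists, at 2, Foxi3 and Pax8 (backgrounds 1.92% and 20.7%). The window of Six6 overlaps that of Six4, and the window of Six3 overlaps that of Six2, so these are not separate observations. Gene starts had a peak in all 7 libraries at 7 of the 14, Six5, Eya3, Sobp, Foxi3, Sall1, Gata3 and Tbx1, and in none at Pax8. Over all genes 55.7% had a start peak in every library. With equal lists it was 4 of the 14, against 51.4%, and 4 had none.

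A second group in the network, picked out after its values were seen, had start peaks in ectoderm alone. The starts of Six6, a homeobox gene of eye and pituitary, and of Foxi2 and Pax2, both genes of placodal ectoderm, had a peak in both ectoderm libraries and no other, a pattern at 2.92% of all gene starts (2.88% at equal length). Six6 kept both at equal list length, Pax2 kept that of replicate 2 and Foxi2 kept neither. The Foxi2 window had 14 and 8 peaks in ectoderm, 0 and 1 in the sorted cells and 2 to 3 in whole teeth. That of Pax2 had 22 and 14 in ectoderm, 2 and 3 in the sorted cells, 6 in incisor, 10 in lower molar and 7 in upper molar. At equal list length Pax2 had 6 and 9 against 2 and 3, and Foxi2 5 and 6 against 0 and 1. Six6 did not show this order. Its window had 13 and 8 peaks in ectoderm against 5 and 10 in the sorted cells. With equal lists it had 4 and 5 against 5 and 10, so the groups were not separate in either setting. Foxi3, a forkhead gene of dental and placodal epithelium, had 17 and 10 in ectoderm against 13 and 12 in the sorted cells. With equal lists it had 8 and 9 against 13 and 12, the order opposite to that of Foxi2.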

How the data were processed

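The authors deposited 1 peak list per library. Per the submitters' processing notes, FastQC, Trimmomatic, Bowtie2, deepTools and Genrich and the build mm10 were used, and versions, options, read filters and any correction for the transposase offset are not given in the sources used here. The deposited signal (column 7) is a value per peak, and the deposited −log10 p (column 8) ran from 2.56 upward. No step that makes either comparable across libraries is recorded, so both served only to rank peaks within a list. Groups came from the sample titles. With Python 3.11.15, pandas 2.3.3 and SciPy 1.17.1, autosomal peaks sharing at least 1 bp were merged over the lists compared. A replicated group had a region when each replicate did, and lacked it when no replicate did. Windows were gene bodies from RefSeq (GRCm38.p6, the assembly of mm10) with 100 kb on each side. Gene starts came from the RefSeq promoter table, which matched 4 of the 6 genes. For Eya1 and Eya2 both gene ends were used. Merging was tested on simulated lists. Intervals are Wilson 95% intervals and the 2 replicated groups were compared by exact permutation. In each window the named regions were those whose worst rank over the libraries of a class was best, and further regions were chosen after their values were seen. The members, gene lists and alternatives were chosen with earlier results of these data known. The 17 motifs, searched on both strands, were chosen after the data were seen. Those not spelled out in the report were the sine oculis core TGATAC, AP-1 TGANTCA, homeobox TAATTA, TEAD GGAATG, the promoter box TATAAA, SOX ACAATG, the GATA-factor letters AGATAA, ETS CCGGAAG, LEF/TCF CTTTGA, MEIS TGACAG, E-box CAGCTG, E2F TTTCCCGC and PBX TGATTGAC. One gene of the network list is not reported here.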

Additional observations from a re-analysis of the deposited data

How the results depend on the processing

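Read depth is unknown, and list length sets how many weak peaks each library can show. The excess of ectoderm over Sox2-positive window peaks (47) stayed positive under all alternatives, at 7.5 and 11 with equal lists by p and by signal, 24.5 with the best 50% of each list and 38.5 with 50 kb windows. It was 22 to 72 with a replicate left out. With the replicate block it was 47 (exact sign-flip p = 0.5, the smallest that 2 pairs allow), and the labels do not say that equal replicate numbers share a source. The ectoderm-only share moved to 45.9% and 43.6% with equal lists by p and by signal (37.4% and 37.6% over all autosomes) and to 73.6% when 50% of a region had to be covered (56.7%). With a replicate left out it was 60% to 75%, the highest without ectoderm replicate 2, while the share over all autosomes was 50% to 64.5%. The Sox2-positive-only share was 18.2% to 42.9% with a replicate left out (27.2% to 38.8% over all autosomes), the highest without Sox2-positive replicate 1. The molar share without incisor moved to 15.4% and 13.8% with equal lists by p and by signal (25.3% and 23.8% over all autosomes). Peaks at the gene start were found in 0 libraries at Eya1 within 500 bp, and in 3 at Eya4 with equal lists. For these moves the cause was not tested.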
